A study of Mus musculus with 8 samples.

Results

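The genes described here are 7 ligands through which antigen-presenting cells stimulate or restrain T cells, namely Cd80, Cd86, Icosl, Cd274, Pdcd1lg2, Cd83 and Cd48. They were picked by symbol, with earlier results of these data known, from 14980 genes with read counts in macrophages of the mouse colon. All 7 were present and passed the filter on low counts that left 14184 genes for testing. The cells were sorted from the lamina propria of the colon as macrophages by MHC class II and by CD64, an Fc receptor typical of them. In 4 male mice, GPR35-positive cells and GPR35-negative cells were taken from each animal, so 8 libraries formed 2 groups of 4, paired by animal. GPR35 is a G protein-coupled receptor for metabolites such as kynurenic acid and lysophosphatidic acid. No transgene, treatment, strain or age is given for either group in the sources used here.

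T cells respond to antigen on MHC molecules according to accompanying signals from the presenting cell. CD80 and CD86 bind CD28, which activates, and CTLA-4, which inhibits, while ICOSL binds ICOS, a relative of CD28. PD-L1, encoded by Cd274, and PD-L2, encoded by Pdcd1lg2, bind the inhibitory receptor PD-1. CD48 binds CD244 and, in mice, CD2, and CD83 keeps MHC class II and CD86 at the surface of presenting cells. Macrophages of the intestinal wall are known for high MHC class II together with a restrained response to bacteria.

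The sort was visible in the targeted gene. Gpr35 measured 91.9, 56.3, 69.1 and 76.1 CPM (counts-per-million values, with TMM scaling of the library sizes) in GPR35-positive replicates 1 to 4, against 3.21, 1.13, 2.84 and 4.69 CPM in the GPR35-negative ones. This was a log2 fold change of 4.60 ± 0.39 (SE; edgeR adjusted p = 1.07e-04). Total counts were 33776161 to 48609595 in GPR35-positive and 15999301 to 30071863 in GPR35-negative libraries.

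The macrophage label was checked with lists of marker genes. All 19 genes of macrophage identity had higher levels in GPR35-positive libraries at an adjusted p under 0.05 in edgeR, with a median log2 fold change of 2.06, and their summed level was 46540 to 55310 CPM, against 5170 to 23300 CPM in GPR35-negative libraries. GPR35-negative replicate 1 stood apart at 23300 CPM, while the other 3 were at 11360, 5170 and 7026 CPM. The 4 MHC class II genes summed to 76900 to 97370 CPM in GPR35-positive and 10230 to 27900 CPM in GPR35-negative libraries, and all 4 were higher. Plasma cell genes went the other way, with 1300 to 2728 CPM in GPR35-positive and 73540 to 143100 CPM in GPR35-negative libraries (8 of 9 lower, 1 higher). B cell genes summed to 119 to 122 CPM in GPR35-positive and 424 to 1605 CPM in GPR35-negative libraries (6 of 8 tested genes lower), with Pax5 at 0 in GPR35-positive replicates 1, 2 and 4 and in GPR35-negative replicate 1. Stromal and endothelial genes summed to 225 to 1125 CPM in GPR35-positive and 3187 to 7447 CPM in GPR35-negative libraries (9 of 12 lower). T and innate lymphoid genes summed to 39.1 to 43.1 CPM in GPR35-positive and 44.9 to 144 CPM in GPR35-negative libraries (7 of 11 lower), and epithelial genes to 68.8 to 132 CPM in GPR35-positive and 164 to 472 CPM in GPR35-negative libraries (2 of 9 lower). Conventional dendritic cell genes, which matter here because such cells carry the same ligands, summed to 128 to 498 CPM in GPR35-positive and 66.7 to 268 CPM in GPR35-negative libraries (2 of 10 higher), with Zbtb46 and Clec9a each at 0 in 1 GPR35-negative library. Cd209a led this sum in GPR35-positive replicates 2 to 4 (239 to 257 CPM). Ccr7 led it in GPR35-negative replicates 2 to 4 (49.6 to 199.9 CPM). Fscn1 went the other way from the sum, with more CPM in the GPR35-negative library of every animal, but did not pass. Granulocyte and mast cell genes overlapped, at 112 to 166 CPM in GPR35-positive and 99.4 to 255.5 CPM in GPR35-negative libraries (1 of 7 tested higher, 2 lower). Different single genes led these sums, Csf3r in GPR35-positive libraries (103 to 159 CPM) and Prg2 in GPR35-negative replicates 2 to 4 (81.1 to 171 CPM). Whether the RNA of the lists of other cell types came from other cells in the sort or from free RNA was not tested. Its part in the results below was not tested either. In such bulk samples fewer cells of a type and less RNA per cell cannot be told apart.

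**Figure D1:**
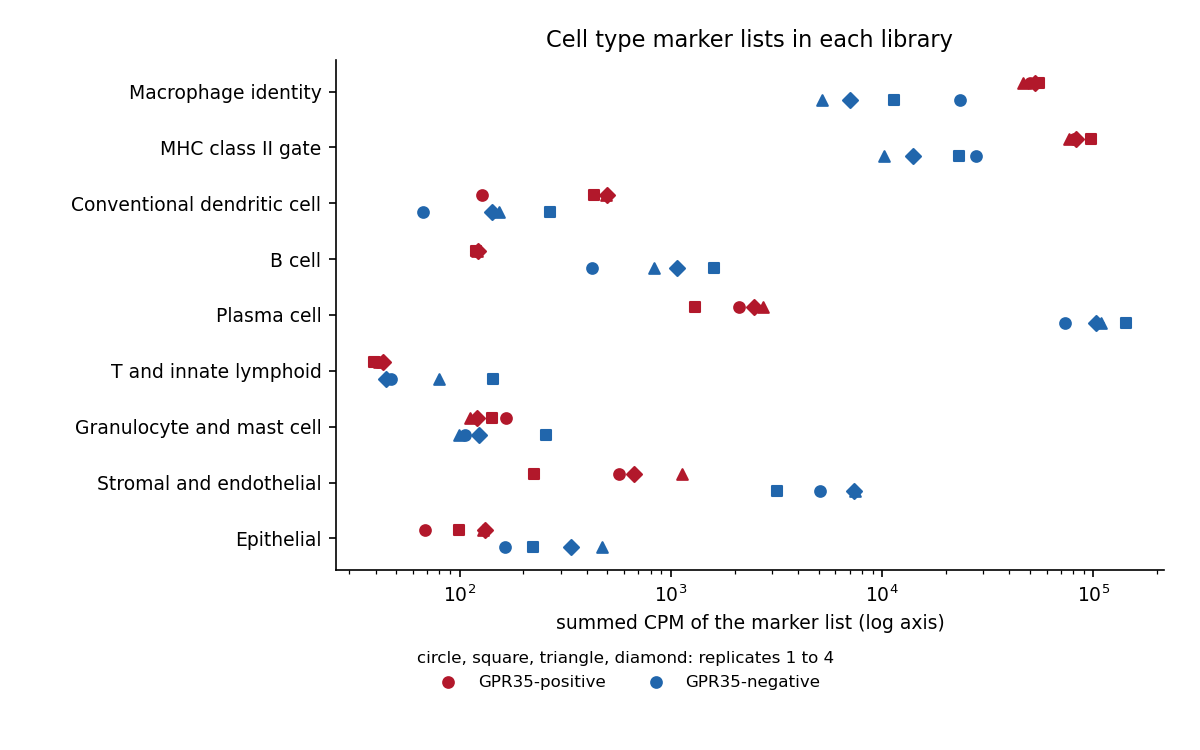
Summed CPM of 9 marker lists (log axis) in each GPR35-positive library (red, upper row of each list) and GPR35-negative library (blue, lower row), with symbols for replicates 1 to 4. Macrophage and MHC class II genes sat higher in all GPR35-positive libraries, and plasma, B cell and stromal genes sat higher in all GPR35-negative libraries.

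With TMM scaling, 5 of the 7 ligands were higher in GPR35-positive libraries (Cd80, Cd86, Cd83, Icosl and Cd48), but all of them except Cd86 changed sign when libraries were scaled to macrophage genes. Pdcd1lg2 was lower on both scales, and Cd274 did not pass the threshold with TMM scaling, an edgeR adjusted p of 0.05 over all tested genes. Over all tested genes, 38.0% passed in either direction, 18.5% as higher and 19.5% as lower. The median log2 fold change of the 7 was 1.25, against -0.05 over all tested genes. The CPM ranges of the groups did not overlap for 6 of the 7, as for 42.1% of all tested genes. The 5 higher ligands were higher in the GPR35-positive library of all 4 animals, which was so for 29.4% of tested genes. Pdcd1lg2 was lower in all 4, which was so for 30.2%. When each library was scaled so that those 19 macrophage identity genes had an equal geometric mean, 4 of the 7 were lower (Cd274, Pdcd1lg2, Icosl and Cd48) and Cd80, Cd86 and Cd83 did not pass, while 0.557% of all tested genes were higher and 86.3% lower.

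**Figure D2:**
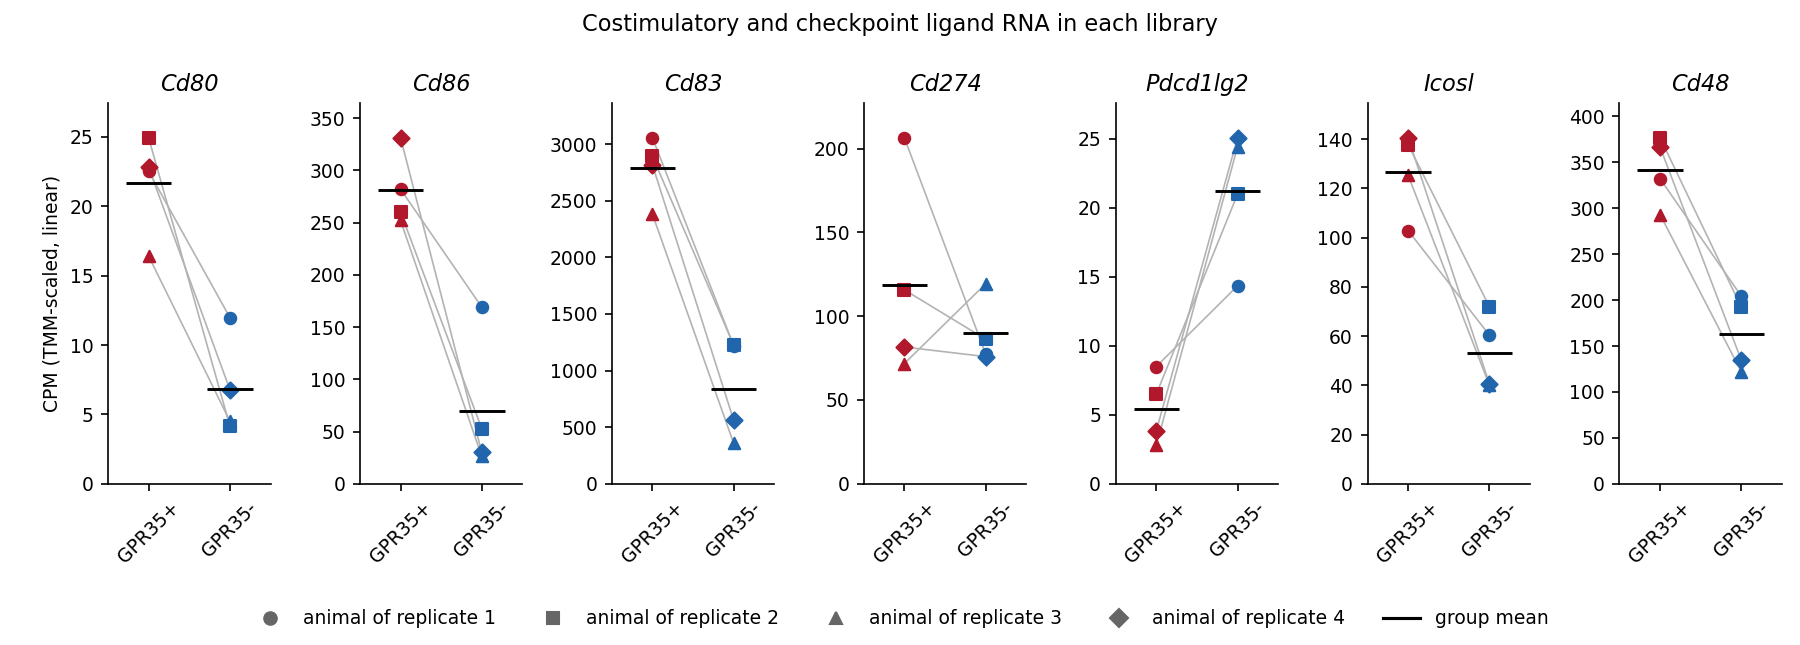
CPM with TMM scaling (linear axes from 0, a separate axis for each gene) of the 7 ligands in GPR35-positive (red) and GPR35-negative (blue) libraries, with grey lines joining the libraries of an animal and black bars for group means. Cd80, Cd86, Cd83, Icosl and Cd48 sat higher in all GPR35-positive libraries, Pdcd1lg2 sat lower and Cd274 overlapped; scaled to macrophage identity genes, the sign of Cd80, Cd83, Cd274, Icosl and Cd48 turned.

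Cd80 and Cd86 encode the B7 proteins that share CD28 and CTLA-4 as receptors. Cd80 (Entrez 12519) lies on chromosome 16 from 38457430 to 38495958 in GRCm38. It measured 22.5, 24.9, 16.4 and 22.8 CPM in GPR35-positive replicates 1 to 4, against 11.98, 4.16, 4.52 and 6.78 CPM in the GPR35-negative ones. The lowest GPR35-positive library was above the highest GPR35-negative one, and GPR35-negative replicate 1 was the highest of its group. These levels rested on 657 to 965 reads in GPR35-positive and 70 to 392 reads in GPR35-negative libraries. In edgeR the log2 fold change came to 1.65 ± 0.35 (SE; adjusted p = 0.00686), and the sign turned to -0.66 when libraries were scaled to the macrophage identity genes. As a percentage of those genes' geometric mean, Cd80 stood at 1.61 ± 0.20% in GPR35-positive and 2.53 ± 0.95% in GPR35-negative libraries (SD, n = 4 each).

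Cd86 (Entrez 12524) lies on the same chromosome, from 36568956 to 36666158, with 24 protein-coding genes between it and Cd80. It had the largest increase of the 7 with TMM scaling and the widest spread among GPR35-negative libraries. Its levels were 282, 260.0, 252 and 331 CPM in GPR35-positive replicates 1 to 4, against 169, 52.7, 26.1 and 29.99 CPM in the GPR35-negative ones. The GPR35-negative library of replicate 1 held more than 3 times the level of any other in its group, and still lay below every GPR35-positive library. The coefficient of variation was 12.7% among GPR35-positive and 97.1% among GPR35-negative libraries. In edgeR, Cd86 had a log2 fold change of 2.02 ± 0.56 (SE; adjusted p = 0.0216), with within-animal differences of 0.74, 2.30, 3.27 and 3.46 for replicates 1 to 4. Without GPR35-negative replicate 1 the log2 fold change was 2.96. The call ended without replicate 2, 3 or 4 (1.97, 1.79 and 1.68), without the GPR35-positive library of replicate 4 (1.93) and without the GPR35-negative library of replicate 2 (1.91), with edgeR adjusted p up to 0.1025 over the 12 fits that left out an animal or a library. Scaled to the macrophage identity genes, the log2 fold change was 0.05 (edgeR adjusted p = 0.900, with a range of 1.81e-08 to 0.900 over 22 alternatives). Cd86 stood at 20.9 ± 2.51% of those genes' geometric mean in GPR35-positive and 20.1 ± 5.32% in GPR35-negative libraries (SD, n = 4 each).

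Icosl (Entrez 50723) encodes the ligand of ICOS, which supports helper T cells and antibody responses. It lies on chromosome 10 from 78069368 to 78079525. It measured 103, 138, 125 and 141 CPM in GPR35-positive replicates 1 to 4, against 60.3, 71.9, 40.0 and 40.5 CPM in the GPR35-negative ones. The groups did not overlap, and GPR35-positive replicate 1 was the lowest of its group. Icosl had a log2 fold change of 1.25 ± 0.22 (SE; edgeR adjusted p = 0.00259), and it turned to -1.17 on the macrophage identity scale (edgeR adjusted p = 0.0179, with a range of 6.29e-07 to 0.0446 over 22 alternatives). Icosl stood at 9.44 ± 1.39% of the macrophage gene mean in GPR35-positive and 21.1 ± 7.91% in GPR35-negative libraries (SD, n = 4 each).

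Of the PD-1 ligands, Pdcd1lg2 was lower with TMM scaling while Cd274 did not pass, and both were lower on the macrophage identity scale. Cd274 (Entrez 60533) and Pdcd1lg2 (Entrez 58205) are neighbours on chromosome 19, at 29362107 to 29388095 and 29410919 to 29472927. They lie 22823 bases apart with 0 protein-coding genes wholly between them. Cd274, the gene of PD-L1, measured 206, 116, 71.7 and 81.6 CPM in GPR35-positive replicates 1 to 4, against 77.5, 86.2, 119 and 75.9 CPM in the GPR35-negative ones. The groups overlapped, with replicate 1 the highest GPR35-positive and replicate 3 the highest GPR35-negative library. The within-animal log2 differences were 1.41, 0.42, -0.73 and 0.10, so 3 of 4 animals were higher in GPR35-positive cells. Cd274 had a log2 fold change of 0.41 ± 0.33 (SE; edgeR adjusted p = 0.354), and it was 0.0036 without GPR35-positive replicate 1 and -0.06 without the animal of replicate 1. In GPR35-positive replicate 1 the dendritic cell genes were at 128 CPM, against 431 to 498 CPM in the other GPR35-positive libraries. Cd209a alone was at 29.0 CPM there, against 239 to 257 CPM in those other libraries, and a link to Cd274 was not tested. On the macrophage identity scale Cd274 was lower by a log2 fold change of -2.25 (edgeR adjusted p = 6.47e-04, with a range of 4.15e-04 to 0.992 over 22 alternatives). An annotated transcript on the opposite strand, AC119228.1, covers 511 of 3622 exon bases of Cd274 (14.1%), and the library kit does not mark strand, so reads of that stretch cannot be told apart.

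Pdcd1lg2, the gene of PD-L2, was the ligand that was lower under every one of the 22 alternatives tried, and its call held in all of them. It measured 8.49, 6.49, 2.77 and 3.83 CPM in GPR35-positive replicates 1 to 4, against 14.3, 21.0, 24.4 and 25.1 CPM in the GPR35-negative ones. The highest GPR35-positive library was below the lowest GPR35-negative library, and replicate 1 lay closest to the other group on both sides. Read numbers were 111 to 364 in GPR35-positive and 353 to 754 in GPR35-negative libraries. The edgeR log2 fold change was -1.97 ± 0.38 (SE; adjusted p = 0.00405), with within-animal differences of -0.75, -1.68, -3.11 and -2.69. On the macrophage identity scale it was -4.65. Plasma, B cell and stromal genes were also lower in all GPR35-positive libraries, as given above, and their part in the Pdcd1lg2 difference was not tested.

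A ratio of 2 genes within a library does not depend on how libraries are scaled. Cd274 over Pdcd1lg2 was 24.1, 17.7, 25.3 and 21.0 in GPR35-positive replicates 1 to 4, against 5.38, 4.10, 4.88 and 3.02 in the GPR35-negative ones. Every GPR35-positive library lay above every GPR35-negative one, and the ratio was higher in 4 of 4 animals. The mean log2 ratio was 4.45 ± 0.23 in GPR35-positive and 2.09 ± 0.37 in GPR35-negative libraries (SD, n = 4 each), a difference of 2.36. An exact 2-sided permutation test, which ignores the pairing by animal, gave p = 0.0286, the least that 4 libraries against 4 allow. After adjustment over the 2 ratios examined it was 0.0571, which did not pass. Exact sign flips within animals, which keep the pairing, gave p = 0.125, the least that 4 animals allow. Leaving out each animal gave differences of 2.22 to 2.45. Cd86 over Cd80 was 12.5, 10.4, 15.3 and 14.5 in GPR35-positive replicates 1 to 4, against 14.04, 12.5, 5.72 and 4.39 in the GPR35-negative ones. These groups overlapped, and GPR35-negative replicates 3 and 4 were the lowest libraries. Expressed as Cd80 to Cd86, the mean log2 ratio was -3.70 ± 0.25 in GPR35-positive and -3.03 ± 0.83 in GPR35-negative libraries (SD, n = 4 each). The difference was -0.68 (2-sided exact permutation p = 0.229, adjusted 0.229), and exact sign flips within animals gave p = 0.5.

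**Figure D3:**
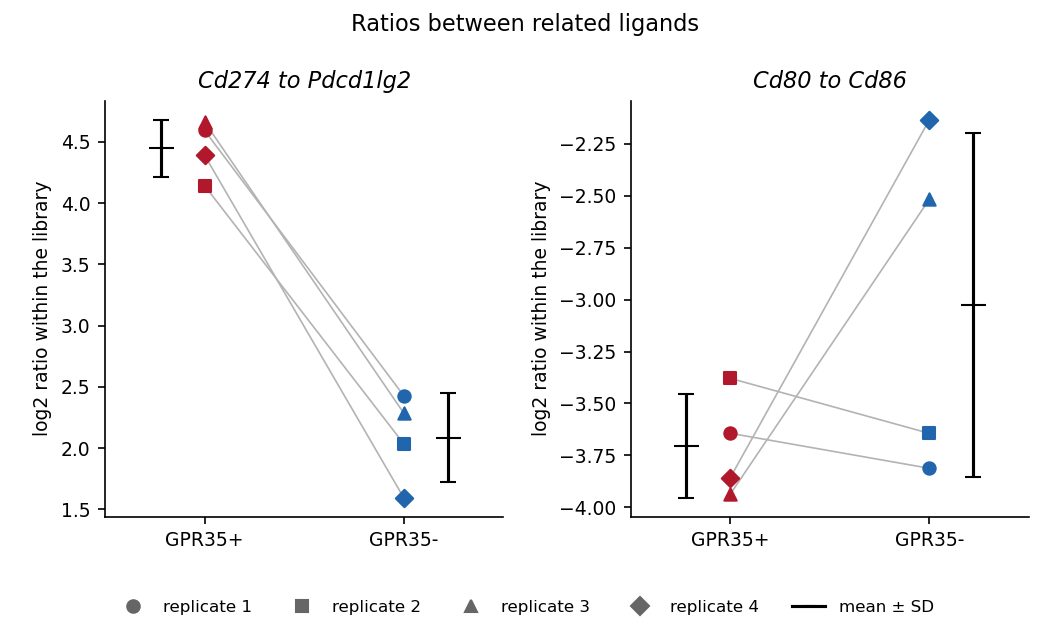
Log2 ratio of 2 related ligands within each library, for GPR35-positive (red) and GPR35-negative (blue) libraries, with symbols for replicates, grey lines joining the libraries of an animal and bars for mean ± SD. Cd274 to Pdcd1lg2 separated the groups (4.45 against 2.09), while Cd80 to Cd86 overlapped (-3.70 against -3.03).

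RefSeq start-site windows of 250 bases (GRCm38.p6) were held for 5 of the 7 ligands; Cd86 and Cd83 had no entry. The stretches below are shown because Cd274 and Pdcd1lg2 are neighbours of which Pdcd1lg2 alone passed with TMM scaling, and because Cd80 is the other ligand of low level, with the opposite sign under TMM scaling. Capitals mark letters that match a searched motif, and Cd80 had no match. The Pdcd1lg2 window is chr19:29410669-29410918, directly upstream of the annotated gene. The Cd80 window is chr16:38458683-38458932, in an intron of the longer annotated Cd80 transcript. The Cd274 stretch is chr19:29367352-29367380, with the capitals at -76 to -68 from the start site, and lies in an annotated exon of the neighbouring gene Plgrkt, on its other strand. All are on the plus strand, written 5′ to 3′.
Pdcd1lg2: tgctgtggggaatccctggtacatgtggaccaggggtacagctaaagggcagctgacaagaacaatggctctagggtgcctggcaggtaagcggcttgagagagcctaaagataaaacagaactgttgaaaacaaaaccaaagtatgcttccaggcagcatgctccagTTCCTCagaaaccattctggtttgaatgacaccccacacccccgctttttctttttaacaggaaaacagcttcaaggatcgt
Cd80: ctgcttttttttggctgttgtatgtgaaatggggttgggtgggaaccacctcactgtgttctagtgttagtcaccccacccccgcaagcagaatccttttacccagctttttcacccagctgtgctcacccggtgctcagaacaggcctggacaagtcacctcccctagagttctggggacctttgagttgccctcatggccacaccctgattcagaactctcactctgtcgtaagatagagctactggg
Cd274: actgggtggcTTCGGTTTCacagacagcg

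Searches on both strands used GAAANNGAA (the core of the interferon-stimulated response element), TTCNNNGAA (the gamma-activated site), GGGNNTTCC (a form of the NF-kappaB site) and GAGGAA (the core bound by PU.1, a factor of myeloid cells). GAAANNGAA was found in the Cd274 window and in 7.13% of 32851 RefSeq windows of the same length. GAGGAA was found in the Pdcd1lg2 window and in 23.3% of windows. TTCNNNGAA (7.02% of windows) and GGGNNTTCC (4.98%) had no match in the 5 windows. These are matches of letters in short windows and not sites of binding.

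Cd83 (Entrez 12522), on chromosome 13 from 43785112 to 43803133, was the most abundant of the ligands. Its levels were 3056, 2892, 2380 and 2816 CPM in GPR35-positive replicates 1 to 4, against 1219, 1223, 356 and 559.6 CPM in the GPR35-negative ones. The groups did not overlap, and GPR35-negative replicates 1 and 2 lay above replicates 3 and 4. Cd83 had a log2 fold change of 1.73 ± 0.38 (SE; edgeR adjusted p = 0.00775), and the sign turned to -0.52 on the macrophage identity scale. The call ended without the animal of replicate 4 (1.58), with edgeR adjusted p of 0.00538 to 0.0546 over the 12 fits that left out an animal or a library. Cd83 stood at 207 ± 11.5% of the macrophage gene mean in GPR35-positive and 294 ± 105% in GPR35-negative libraries (SD, n = 4 each).

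Cd48 (Entrez 12506), on chromosome 1 from 171681245 to 171705258, encodes a glycolipid-anchored adhesion protein of blood cells in general. It measured 332, 377, 293 and 367 CPM in GPR35-positive replicates 1 to 4, against 204, 192, 122 and 134 CPM in the GPR35-negative ones. The groups did not overlap, and replicate 3 was the lowest on both sides. The edgeR log2 fold change was 1.07 ± 0.19 (SE; adjusted p = 0.00326), the smallest among the 5 higher ligands, and it turned to -1.34 on the macrophage identity scale (edgeR adjusted p = 0.00631, with a range of 1.18e-08 to 0.0316 over 22 alternatives). Cd48 stood at 25.4 ± 1.94% of the macrophage gene mean in GPR35-positive and 64.1 ± 21.3% in GPR35-negative libraries (SD, n = 4 each).

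The scaling moved all genes together. The median log2 fold change of all tested genes was -0.05 with TMM scaling and -2.60 on the macrophage identity scale. Set against the all-gene median of each scaling, Cd80, Cd86, Cd83, Cd274, Icosl and Cd48 had values above it in both, and Pdcd1lg2 had values below it in both. As the change of scaling moved genes by a similar amount, a gene's side of the median could hardly change. The values on the identity scale are therefore not a separate check of those sides. Cd274 lay closest to the median there, at -2.25 against -2.60. On the identity scale the median of the 7 ligands was -1.17.

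**Figure D4:**
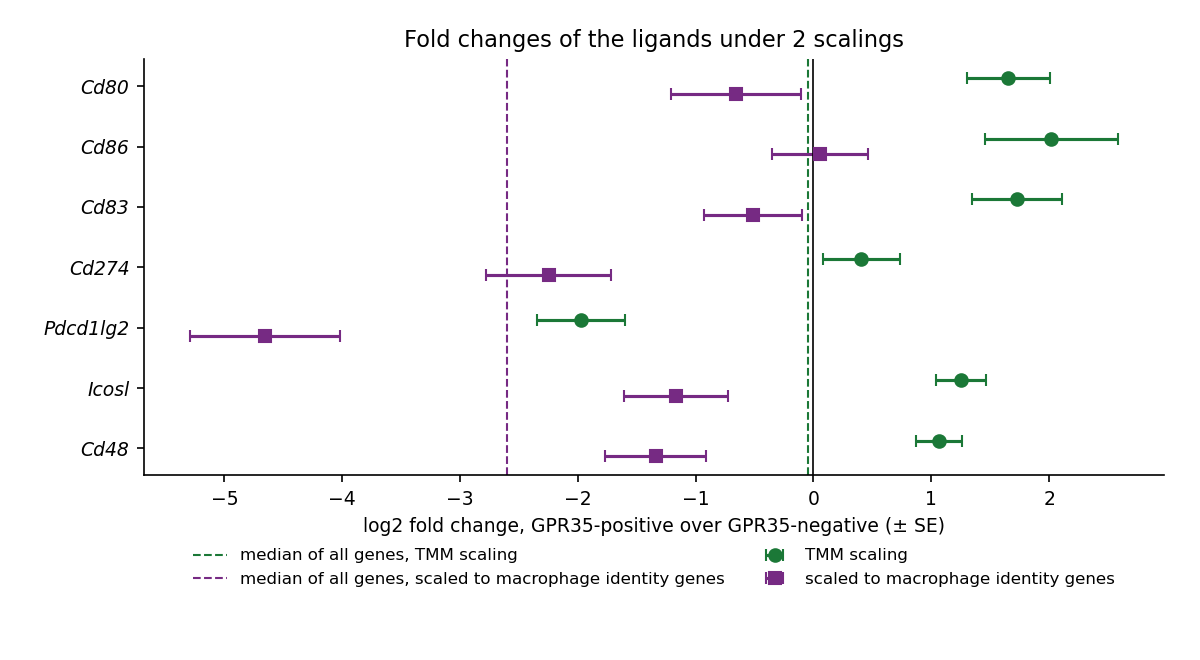
Log2 fold change ± SE, GPR35-positive over GPR35-negative, of the 7 ligands with TMM scaling (green circles) and with libraries scaled to 19 macrophage identity genes (purple squares); dashed lines give the median of all tested genes in each scaling (-0.05 and -2.60). Cd80, Cd83, Cd274, Icosl and Cd48 changed sign between the scalings, Cd86 moved to 0.05 and Pdcd1lg2 stayed negative.

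Levels were compared between genes as CPM per kilobase of the deposited gene length. In GPR35-positive libraries Cd83 led at 1301 ± 135 CPM per kb, ahead of Cd48 at 299.6 ± 33.1 and Cd86 at 110.8 ± 14.03 CPM per kb (SD, n = 4 each). Icosl at 46.05 ± 6.24 and Cd274 at 32.7 ± 16.9 CPM per kb overlapped in range, and Cd80 at 12.75 ± 2.16 and Pdcd1lg2 at 1.58 ± 0.759 CPM per kb lay below them without overlap. In GPR35-negative libraries Cd83 at 392 ± 209.5 and Cd48 at 143 ± 36.0 CPM per kb led again, but overlapped in range. Cd86 at 27.4 ± 26.6, Cd274 at 24.7 ± 5.57 and Icosl at 19.35 ± 5.69 CPM per kb overlapped there. So did Pdcd1lg2 at 6.21 ± 1.44 and Cd80 at 4.035 ± 2.12 CPM per kb, which shared the bottom of the order.

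Spread within a group also differed between the ligands. The coefficient of variation of the 5 higher ligands was 10.4% to 16.9% among GPR35-positive and 25.2% to 97.1% among GPR35-negative libraries. Cd274 and Pdcd1lg2 were the reverse, at 51.6% and 48.0% among GPR35-positive libraries and 22.6% and 23.2% among GPR35-negative ones. These are descriptions of 4 libraries a group, with no test.

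The ligands' profiles over the 8 libraries were compared by the root mean square difference of log2 CPM, each gene centred on its own mean. Icosl and Cd48 were the closest pair among the 7 (0.179), and Cd86 and Pdcd1lg2 the farthest (2.49). Among all other genes, the nearest to Cd86 were Adgre1 (0.145), which encodes the macrophage protein F4/80, and Csf1r (0.16). Csf1r encodes the receptor of the macrophage growth factor. Both belong to the macrophage identity genes used for scaling, so this likeness and the Cd86 value on that scale are not separate results. Nearest to Cd274 was Gbp4 (0.252), an interferon-induced guanylate-binding protein gene, with Cwc25 (0.274) next. For Cd83 the nearest were 1810011H11Rik (0.144) and Mb21d1 (0.182), which encodes the DNA sensor cGAS. For Cd48 they were Trex1 (0.089), a DNA exonuclease gene, and Commd8 (0.099). Klhl6 (0.123) and Akr1c13 (0.128) were nearest to Icosl, and Dnajc28 (0.184) and Rap2b (0.192) to Cd80. Pdcd1lg2 had the least close neighbours, Nxpe3 (0.287) and Slc25a53 (0.329). These distances share the libraries and the 2 groups, so they describe likeness only.

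A list of 70 other genes of costimulation held 64 tested genes, of which 33 were higher and 13 lower in GPR35-positive libraries with TMM scaling, with a median log2 fold change of 0.86. On the macrophage identity scale the same 64 had 3 higher, namely Cd244, Slamf8 and Havcr2, and 40 lower. Over all tested genes, 18.5% were higher and 19.5% lower with TMM scaling, and 0.557% higher and 86.3% lower on the macrophage identity scale. The counts by role below stand beside the same shares.

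The receptors of the 7 ligands were measured in the same libraries. Cd28, the activating receptor of CD80 and CD86, averaged 10.1 ± 1.19 CPM in GPR35-positive and 254 ± 39.7 CPM in GPR35-negative libraries (SD, n = 4 each). Cd28 had a log2 fold change of -4.65 ± 0.17 (SE; edgeR adjusted p = 6.01e-06). Ctla4, their inhibitory receptor, averaged 5.05 ± 2.31 CPM in GPR35-positive and 160 ± 31.3 CPM in GPR35-negative libraries, a log2 fold change of -4.98 ± 0.43 (edgeR adjusted p = 1.10e-04). Both were lower in 4 of 4 animals and on both scales. Beside them, the T and innate lymphoid list summed to at most 144 CPM in a GPR35-negative library, and Cd8a was at 0 in GPR35-negative replicate 4. The plasma cell list summed to at least 73540 CPM in those libraries, and its part in the Cd28 and Ctla4 differences was not tested.

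Icos, the receptor of ICOSL, averaged 1.68 ± 0.919 CPM in GPR35-positive and 11.7 ± 8.56 CPM in GPR35-negative libraries and was lower (log2 fold change -2.79 ± 0.68, edgeR adjusted p = 0.0123). Pdcd1, the gene of PD-1, averaged 0.915 ± 0.263 CPM in GPR35-positive and 4.51 ± 3.16 CPM in GPR35-negative libraries and did not pass (log2 fold change -2.29 ± 0.95, edgeR adjusted p = 0.0863). It passed as lower in 5 of 21 alternatives, namely without replicate 4 (-2.72), without the GPR35-negative library of replicate 4 (-2.70), with DESeq2 without the block (-2.32) and on the macrophage identity scale without and with the block (-4.80 and -4.02). Icos and Pdcd1 were named after their values were seen. The receptors of CD48 parted in sign. Cd244 averaged 103 ± 7.91 CPM in GPR35-positive and 7.14 ± 3.56 CPM in GPR35-negative libraries, and was higher by a log2 fold change of 3.85 ± 0.32 (edgeR adjusted p = 9.79e-05) and on the macrophage identity scale by 1.21. Cd2 averaged 7.75 ± 4.12 CPM in GPR35-positive and 141 ± 43.2 CPM in GPR35-negative libraries, and was lower by -4.18 ± 0.45 on the log2 scale (edgeR adjusted p = 3.06e-04).

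In the wider list of receptors known from T cells, 8 of 14 were lower and 1 was higher, with a median log2 fold change of -2.49. Tigit, an inhibitory receptor for the poliovirus receptor family, had the lowest value of the list, -5.46 ± 0.60 (edgeR adjusted p = 3.15e-04). Tnfrsf18, which encodes the TNF receptor GITR, was at -1.75 ± 0.24 (edgeR adjusted p = 8.64e-04). The gene with the opposite sign was Lag3, an MHC class II-binding receptor, at 2.62 ± 0.52 (edgeR adjusted p = 0.00475) with TMM scaling and 0.10 on the macrophage identity scale. It was named after its values were seen, and averaged 4.78 ± 0.996 CPM in GPR35-positive and 0.769 ± 0.4002 CPM in GPR35-negative libraries.

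Among other members of the SLAM family and CD2, 4 of 9 tested genes were higher and 4 lower, with a median of -0.34. The higher genes were Cd244, Slamf8 (3.21 ± 0.52, edgeR adjusted p = 0.00190), Slamf9 (2.16) and Cd84 (2.09), and on the macrophage identity scale Slamf8 stood at 1.12, Slamf9 at 0.08 and Cd84 at 0.02. The lower genes were Cd2, Slamf6 (-1.12 ± 0.24, edgeR adjusted p = 0.00715), Slamf7 (-0.60) and Slamf1 (-2.24), and all 4 were lower on that scale too. Ly9 had a value of -0.34 and did not pass with TMM scaling, but passed with library totals (-0.63) and on the macrophage identity scale without and with the block (-2.91 and -2.73). Slamf9, Cd84, Slamf7, Slamf1 and Ly9 were named after their values were seen. Without the animal of replicate 4 the calls of Slamf6 (-0.94), Slamf9 (1.83) and Cd84 (1.79) ended. The Slamf7 call ended without replicate 2, 3 or 4 (-0.46, -0.62 and -0.56), and that of Slamf1 in 9 of the 12 fits that left out an animal or a library, with values of -2.40 to -1.48.

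Of the other B7 and butyrophilin genes tested, Vsir and Cd276 were higher with TMM scaling. Vsir, which encodes the inhibitory ligand VISTA, averaged 672 ± 64.0 CPM in GPR35-positive and 248 ± 79.2 CPM in GPR35-negative libraries (log2 fold change 1.43 ± 0.22, edgeR adjusted p = 0.00139), and turned to -0.96 on the macrophage identity scale. Cd276, the gene of B7-H3, averaged 62.8 ± 18.01 CPM in GPR35-positive and 7.75 ± 6.73 CPM in GPR35-negative libraries (3.01 ± 0.55, edgeR adjusted p = 0.00336), and stayed positive at 0.94 on that scale without passing. Ildr2 (1.14) and Btnl2 (0.16) did not pass.

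Of the TNF family ligands and CD40, 5 of 6 tested genes were higher with TMM scaling, with a median log2 fold change of 2.36. Cd40, the receptor through which helper T cells license presenting cells, averaged 88.4 ± 27.6 CPM in GPR35-positive and 21.8 ± 7.66 CPM in GPR35-negative libraries. Its log2 fold change was 2.02 ± 0.30 (edgeR adjusted p = 0.00138) and turned to -0.33 on the macrophage identity scale. Tnfsf14 (LIGHT) was at 3.39 ± 0.47 (edgeR adjusted p = 9.14e-04), Tnfsf8 (CD30 ligand) at 2.71 ± 0.67 (edgeR adjusted p = 0.0130) and Tnfsf15 (TL1A) at 3.74 ± 0.97 (edgeR adjusted p = 0.0160). These 3 were scarce, at 8.003 ± 2.03, 7.92 ± 2.81 and 6.74 ± 3.43 CPM in GPR35-positive and 0.750 ± 0.310, 1.22 ± 0.875 and 0.494 ± 0.550 CPM in GPR35-negative libraries. Tnfsf9, the 4-1BB ligand gene, was named after its values were seen (1.07 ± 0.30, edgeR adjusted p = 0.0214; -1.29 on the macrophage identity scale), as was Tnfsf18 (1.84), which did not pass. The Tnfsf15 call ended without replicate 1 (3.41) or 4 (3.71), with limma voom (3.47) and on the macrophage identity scale (0.88). On that scale Tnfsf14 stood at 0.81 and Tnfsf8 at 0.04, and neither passed. The Tnfsf9 call ended without replicate 1 (1.07) or 4 (0.99), without the GPR35-positive library of replicate 1 (0.9956) and without the GPR35-negative library of replicate 4 (0.95).

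Among other inhibitory ligands and receptors of myeloid cells, 9 of 13 were higher and 1 lower with TMM scaling, with a median of 1.22. Havcr2, the gene of TIM-3, was higher on both scales, by 3.83 ± 0.43 with TMM scaling (edgeR adjusted p = 3.50e-04) and 1.66 on the macrophage identity scale. Lgals9, which encodes its ligand galectin-9, averaged 278 ± 22.9 CPM in GPR35-positive and 119.5 ± 17.2 CPM in GPR35-negative libraries. Its log2 fold change was 1.22 ± 0.14 (edgeR adjusted p = 3.64e-04) and turned to -1.28 on the macrophage identity scale. Pvr, the gene of the poliovirus receptor that TIGIT binds, was at 1.39 ± 0.23 (edgeR adjusted p = 0.00194) and turned to -1.15. Cd200, whose product restrains myeloid cells, was the lower gene, at -3.13 ± 0.68 (edgeR adjusted p = 0.00722). It averaged 11.7 ± 8.10 CPM in GPR35-positive and 102 ± 75.7 CPM in GPR35-negative libraries, and its call ended without replicate 4 (-3.04).

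Of the genes listed as handling the ligands' proteins, 3 of 5 were higher with TMM scaling, and whether each has that role was not tested. March1, a ubiquitin ligase that removes CD86 and MHC class II from the surface, averaged 168 ± 19.0 CPM in GPR35-positive and 39.6 ± 32.1 CPM in GPR35-negative libraries. Its log2 fold change was 2.09 ± 0.56 (edgeR adjusted p = 0.0185), close to that of Cd86, and like that of Cd86 near 0 (0.04) on the macrophage identity scale. The March1 call ended without replicate 2 (2.28), 3 (1.89) or 4 (1.76). Cmtm6, whose product keeps PD-L1 from degradation, averaged 389 ± 37.9 CPM in GPR35-positive and 227 ± 71.2 CPM in GPR35-negative libraries (0.78 ± 0.22, edgeR adjusted p = 0.0216), and turned to -1.61 on that scale. Its call ended in 6 of the 12 fits that left out an animal or a library, namely without replicate 2 (0.90), 3 (0.72) or 4 (0.60), GPR35-positive replicate 1 (0.75) or 4 (0.74), or GPR35-negative replicate 3 (0.70). It also ended with library totals alone (0.50). Lnpep, an aminopeptidase of endosomes, was at 1.26 ± 0.20 (edgeR adjusted p = 0.00165), and turned to -1.21. March8 (0.61 ± 0.27, edgeR adjusted p = 0.110) did not pass. It passed as higher with DESeq2 and the block (0.63) and without GPR35-negative replicate 1 (0.86), and as lower on the macrophage identity scale (-1.84).

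Of the genes listed as regulators of the ligands' genes, 9 of 13 were higher with TMM scaling, and whether each has that role was not tested. Ciita, the master activator of MHC class II genes, was at 2.62 ± 0.34 (edgeR adjusted p = 7.08e-04) and at 0.36 on the macrophage identity scale. The interferon gamma receptor chains Ifngr1 (1.46 ± 0.21, edgeR adjusted p = 0.00112) and Ifngr2 (1.70 ± 0.22, edgeR adjusted p = 7.94e-04) were higher and turned to -0.92 and -0.68 on that scale. Hif1a, a hypoxia factor that acts on Cd274, was at 1.53 ± 0.26 (edgeR adjusted p = 0.00252) and turned to -0.97. Irf1, an interferon-induced factor that acts on Cd274, was named after its values were seen. It averaged 483 ± 126.5 CPM in GPR35-positive and 318 ± 98.97 CPM in GPR35-negative libraries and did not pass (0.60 ± 0.26, edgeR adjusted p = 0.0974). Without GPR35-negative replicate 1 it passed (0.80), and with the animal as a block it passed (0.62, edgeR adjusted p = 0.0123; 2.21e-05 to 0.314 over 22 alternatives). It was higher in 4 of 4 animals with TMM scaling and turned to -1.79 on the macrophage identity scale.

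**Figure D5:**
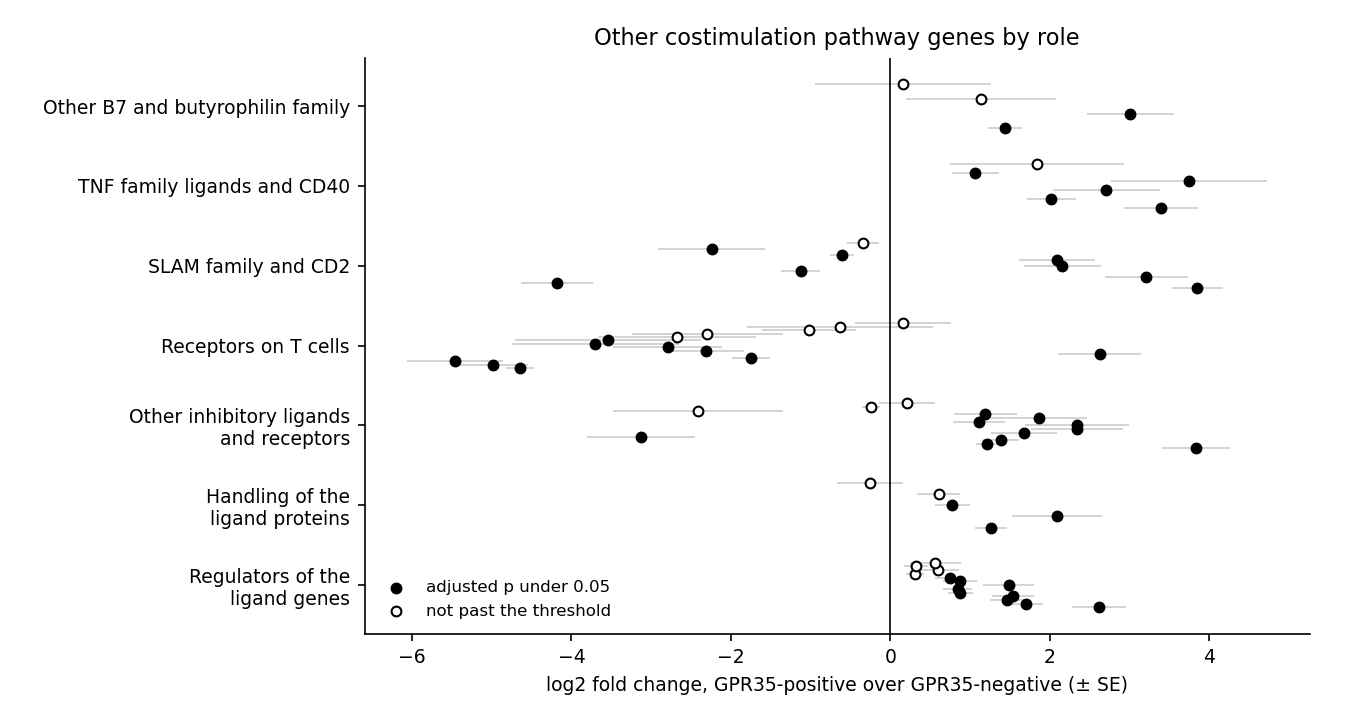
Log2 fold change ± SE, GPR35-positive over GPR35-negative, with TMM scaling, of 64 other costimulation genes by role; filled points have an edgeR adjusted p under 0.05 and open points do not. Receptors on T cells lay mostly below 0 (8 lower, 1 higher) and TNF family ligands above it (5 of 6 higher), against 18.5% higher and 19.5% lower over all tested genes. On the macrophage identity scale, 3 of the 64 were higher and 40 lower, against 0.557% and 86.3% of all tested genes.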

How the data were processed

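RNA of 8 sorted samples was amplified with SMART-Seq v4 and made into Nextera XT libraries, per the labels' protocols, with no molecular identifiers and no strand information. The authors deposited raw read counts per gene and a gene length column, which was used here for CPM per kilobase. The submitters' processing notes name the mm10 build, the aligner STAR 2.5.2a and R 3.4.2; how reads were counted and against which annotation is not given in the sources used here. Of 14980 rows, 9 had no symbol (0.0179% of counts) and stayed out. Of the list genes, 7 symbols were not matched and are not analysed here.

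Counts were tested with edgeR 4.0.16 (R 4.3.3): filterByExpr (minimum count 10, total 15), TMM scaling, robust quasi-likelihood F-test, Benjamini-Hochberg adjustment over 14184 genes and a threshold of 0.05. SE was obtained by dividing the absolute log2 fold change by the root of F. CPM uses TMM effective library sizes, and log2 CPM a prior count of 2. Ratios were tested by 2-sided exact permutation in Python 3.11.15 (numpy 2.4.6). The gene fits, not the ratio test, were checked on simulated counts with planted changes. Those counts held no pairing and no shift in cell content, so the check does not cover the choice of scaling. P-values of the main fit measure spread among the 4 libraries of each group. The same 4 animals gave both groups, and the main fit ignores that pairing.

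The labels give an animal number to each library, which pairs the samples. Across genes, the 2 libraries of an animal deviated from their groups with correlations of 0.206, 0.206, 0.431 and 0.0637. The highest correlation of each GPR35-positive library with a GPR35-negative library of another animal was 0.104, 0.0911, 0.1725 and 0.2375. For replicate 4 that value was above the one with its own partner. The main fit has no block because the labels state no model. No pair of replicates agreed within sampling noise (smallest chi-square per degree of freedom 26.1). Alternatives were RLE scaling, library totals, macrophage identity scaling with and without the block, 2 other filters, the replicate block, DESeq2 1.42.0, limma 3.58.1 voom, and leaving out each animal or library.

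The ligands and the gene lists were chosen with earlier results of these data known. The text names Gpr35, the 7 ligands, the 4 genes with the smallest p in each role list and the 2 genes with the profile nearest to each ligand; others are marked. Gene coordinates and promoter windows come from RefSeq GRCm38.p6, and exon overlaps from the GENCODE annotation of the same build.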

Additional observations from a re-analysis of the deposited data

Results flagged for a closer look

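Of 40 groups of libraries examined for a sample far from the others, 1 stood out, where chance would give about 1 in 20. The granulocyte and mast cell genes summed to 255.5 CPM in GPR35-negative replicate 2, against 99.4 to 123 CPM in the other GPR35-negative libraries. No ligand was named by this search.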

How the results depend on the processing

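Pdcd1lg2 kept its direction and its call under all 22 alternatives (leave-out range -2.43 to -1.68). Scaling to macrophage identity genes turned the sign of Cd80 (-0.66, with the replicate block -0.59), Cd83 (-0.52 and -0.45), Cd274 (-2.25 and -2.11), Icosl (-1.17 and -1.08) and Cd48 (-1.34 and -1.27), and ended the Cd86 call (0.0546 and 0.081). The same scalings turned Vsir (-0.96 and -0.88), Ildr2 (-1.45 and -0.85), Btnl2 (-1.86 and -1.52), Cd40 (-0.33 and -0.34), Tnfsf9 (-1.29 and -1.21), Lgals9 (-1.28 and -1.14), Pvr (-1.15 and -0.93), Lnpep (-1.21 and -1.11), Cmtm6 (-1.61 and -1.54), March8 (-1.84 and -1.69), Ifngr2 (-0.68 and -0.63), Ifngr1 (-0.92 and -0.86), Hif1a (-0.97 and -0.79), Irf1 (-1.79 and -1.75) and, without the block, Tnfsf18 (-0.35). By its construction this scaling sets 19 genes that were all higher to no difference. Other turns were those of Cd274 with limma voom (-0.11) and over the leave-out fits (-0.0629 to 0.75) and of Btnl2 with library totals (-0.10) and over the leave-out fits (-0.47 to 0.90). The cause was not tested. Leaving out an animal or a library gave 1.44 to 2.07 for Cd80, 1.68 to 2.96 for Cd86, 1.48 to 1.99 for Cd83, 1.09 to 1.47 for Icosl and 0.95 to 1.21 for Cd48, with 4 to 6 ligands called. Calls over all tested genes numbered 5386, against 12313 and 11690 on the identity scale without and with the block, and 3284 to 5966 when leaving out, with fewer samples in each fit. Other costimulation genes called numbered 46, against 28 to 47 when leaving out, the lowest without replicate 4. Library totals alone gave 1692 higher and 4193 lower genes, against 2617 higher and 2769 lower with TMM. The replicate block gave 5585 calls (2755 higher, 2830 lower), changed no call of a ligand, and changed no other call among named genes than that of Irf1. Sign flips within animals cannot go below an exact p of 0.125, which the Cd274 to Pdcd1lg2 ratio reached. Low genes such as Tnfsf15 and Pdcd1 gave no value under the filter of at least 5 CPM in 4 libraries, and depth limits what can be said of them.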
